A study of Mus musculus with 12 samples.

Results

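Doxorubicin (DOX) was compared with normal saline (NS) in hearts of A17fl/fl mice, which carry loxP-flanked (floxed) Adam17 alleles and no Cre, so that the membrane-bound protease ADAM17 can still be made in every cell type. The comparison was chosen by the genotype and treatment labels and took 6 of the 12 RNA-seq libraries of the study, 3 of A17fl/fl + DOX and 3 of A17fl/fl + NS. The other 6 came from littermates termed A17α-MHCKO, in which Cre under the α-MHC promoter of cardiomyocytes excises exon 2 of Adam17, given the same injections. DOX was injected into the peritoneum at 5 mg/kg on days 0, 7, 14 and 21, a cumulative 20 mg/kg, and control mice got the same volume of saline. By the study's methods the mice were on a C57BL/6J background, tissue was taken 4 weeks after the last injection and the left ventricle was sequenced, whereas the labels say heart. The mice were males, 8 weeks old when they entered the experiment.

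Doxorubicin is an anthracycline that traps topoisomerase II on DNA and undergoes redox cycling, and it is used against many tumors. Its best known late side effect is a dilated cardiomyopathy that grows with the cumulative dose. Genes usually followed in this setting include those of antioxidant defense (heme oxygenase, metallothioneins, glutathione transferases), heat shock proteins that refold damaged proteins, the inflammatory and interferon programs, and MHC molecules, which display peptides to T cells.

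The 6 libraries held between 15991334 and 17488695 reads assigned to genes, and 16101 of 53465 genes had enough reads to be tested. NS replicate 1 stood apart: the mean correlation of its log2(CPM + 1) values with those of the other 11 libraries was 0.913, while the other 5 A17fl/fl libraries had 0.962 to 0.976 (CPM, counts scaled to a common library size with trimmed-mean factors, TMM). Its 17 neutrophil markers summed to 3520 CPM, against 25.2 to 55.4 CPM in the other 5, and its 12 cardiomyocyte markers to 30700 CPM, against 54700 to 66900 CPM. Red cell markers (3620 CPM against 518 to 1930 CPM), platelet markers (221 CPM against 28.7 to 51.3 CPM) and macrophage markers (1480 CPM against 629 to 756 CPM) were highest in it too. The atrial myosin light chain Myl7, which left ventricle should lack, was at 0 and 0.0627 CPM in NS replicates 1 and 3, at 1019 CPM in NS replicate 2 and at 397, 260 and 193 CPM in the DOX libraries. In whole tissue, fewer cells of a type and less RNA per cell cannot be told apart.

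With all libraries, 454 genes met the limits that the study's methods set for a call, which ask for a log2 fold change beyond 1 in either direction, for p below 0.05 before adjustment, and for an average FPKM (fragments scaled to gene length and library size) above 1 in NS or DOX. Of these, 96 genes were called higher after DOX (0.596% of the 16101 genes tested) and 358 were called lower (2.22%). The call rests on the unadjusted p: 1721 genes had one under 0.05, and 0 genes reached an adjusted p under 0.05 in edgeR's quasi-likelihood test with Benjamini-Hochberg adjustment, the smallest adjusted p being 0.222. At the same adjusted limit DESeq2 gave 151 genes (0.938%) and edgeR's likelihood ratio test 128 genes. The median log2 fold change of all genes tested was -0.04, and 7158 of the 16101 genes had one above 0.

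Leaving out a library moved the lower calls far more than the higher ones where that library was NS replicate 1. Its removal gave 204 calls (98 higher, 106 lower), and 55 of the 96 higher and 58 of the 358 lower genes of the full comparison were among them in the same direction. Without NS replicate 2 the count was 987, of which 306 were higher, and 391 genes reached an adjusted p under 0.05 in edgeR's quasi-likelihood test. Without NS replicate 3 it was 734, and without DOX replicates 1, 2 and 3 it was 374, 315 and 296 genes. Of the 396 called genes that missed the limits in at least one refit, 143 missed them in exactly 1, and for 127 of those (9 higher, 118 lower) it was the refit without NS replicate 1.

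**Figure D1:**
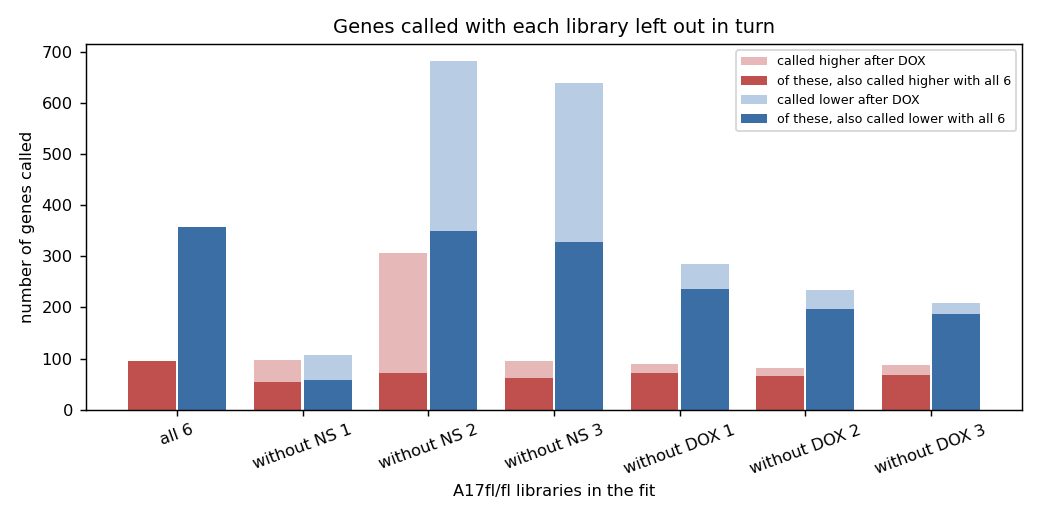
Number of genes called higher (red) and lower (blue) after DOX with all 6 A17fl/fl libraries and with each left out in turn; dark bars are the genes also called, in that direction, with all 6. Lower calls go from 358 with all libraries to 106 without NS replicate 1, while higher calls go from 96 to 98.

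A gene was said to hold where it met all 3 limits in the same direction in the full fit and in each of the 6 refits. This was so for 58 genes (0.36% of those tested, and 12.8% of the 454 called): 27 higher, or 28.1% of the higher calls, and 31 lower, or 8.66% of the lower calls. In 50 of the 58 the values of the 3 DOX libraries did not overlap those of the 3 NS libraries, against 13.3% of all genes tested, and the limits that chose the 58 favor such genes. Adjusted p values of the 58 ran from 0.222 to 0.393 in edgeR's quasi-likelihood test, and DESeq2 gave 43 of them (20 higher, 23 lower) an adjusted p under 0.05 and gave 2, Scgb3a1 and Mt2, none at all. The log2 fold changes ran from 1.23 to 5.19 among the higher and from -4.87 to -1.28 among the lower genes, with medians of 1.38 and -2.08. NS replicate 1 was the highest NS library for 18 of the 31 lower genes, and 9 of the 58 log2 fold changes were over 1.5 times smaller without it. Among the 58, 50 are protein-coding in the GENCODE M21 annotation and 7 carry only predicted-model names. Another protein-coding gene model overlaps 14 of them, including Cx3cr1, Ciita, Cideb, Scamp4 and Cebpb, so that some of their reads could belong to the neighbor.

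**Figure D2:**
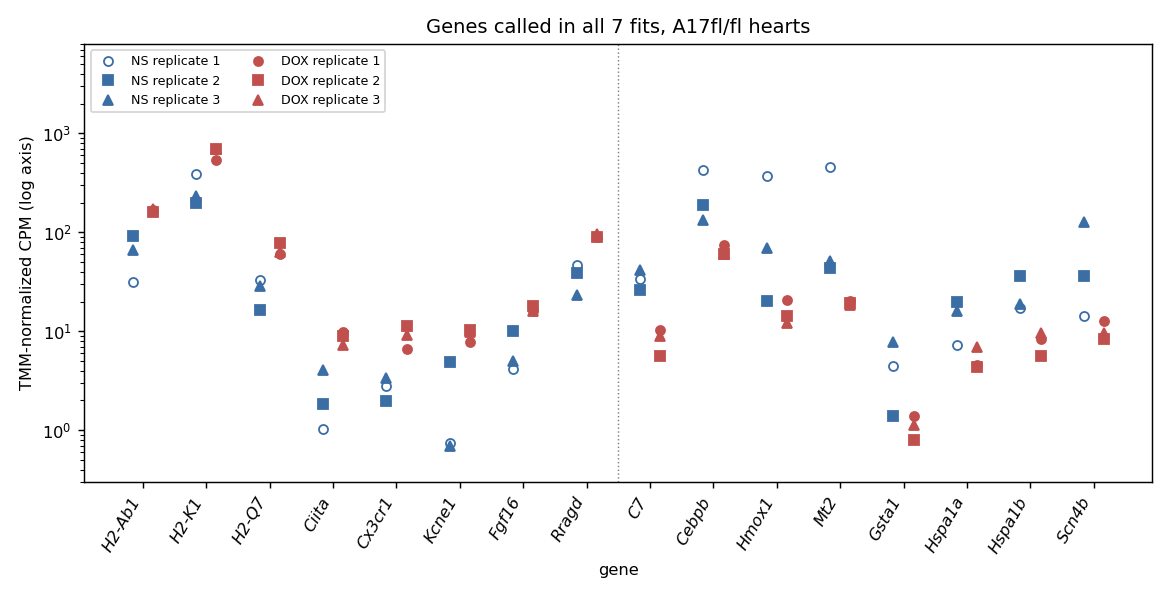
TMM-normalized CPM (log axis) of 16 genes that met the limits in all 7 fits, in the 3 NS libraries (blue, replicate 1 as an open circle) and the 3 DOX libraries (red) of A17fl/fl hearts; genes left of the dotted line were called higher and those right of it lower. For H2-Ab1 the NS libraries sit between 31.3 and 91.8 CPM and the DOX libraries between 161 and 172 CPM, while for Hmox1 and Mt2 NS replicate 1 sits far above every other library.

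Among the 27 higher genes, 2 are on the list of 18 class I presentation and immunoproteasome genes and 2 on the MHC class II list. Over all genes tested, 0.36% held in either direction. H2-Q5, given below, is on neither list. The MHC class I heavy chain H2-K1 (chr17:33996017-34000347, minus strand, GENCODE M21 on GRCm38) measured 393, 197 and 234 CPM in the NS libraries and 543, 700 and 701 CPM in the DOX libraries. The groups were apart, and the log2 fold change of 1.24 (SE 0.32, adjusted p = 0.334, edgeR quasi-likelihood) was between 1.05 and 1.58 over the refits. H2-Q7, a Qa-2 class I gene, read 33.1, 16.6 and 28.5 CPM after NS and 60.6, 78.7 and 63.5 CPM after DOX, a log2 fold change of 1.37 (SE 0.32). Its neighbor H2-Q5, annotated as a polymorphic pseudogene, also held (1.26, SE 0.26), and H2-Q6 (1.20, SE 0.38) was called in 5 of the 6 refits. These class I genes resemble each other closely and reads may have been split among them, so the values of single H2-Q genes are uncertain.

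The 250 bases before the RefSeq start of H2-K1 (chr17:34000348-34000597, minus strand, GRCm38.p6, 1 of 2 windows listed for it) and of H2-Q7 (chr17:35438905-35439154, plus strand) are shown because both genes held in the same direction. Capitals mark CCAAT on either strand, which occurs in 33.8% of the 32851 windows of this length in the RefSeq table, and in H2-Q7 also the overlapping Y box letters CTGATTGG, which occur in 3.83%.
H2-K1: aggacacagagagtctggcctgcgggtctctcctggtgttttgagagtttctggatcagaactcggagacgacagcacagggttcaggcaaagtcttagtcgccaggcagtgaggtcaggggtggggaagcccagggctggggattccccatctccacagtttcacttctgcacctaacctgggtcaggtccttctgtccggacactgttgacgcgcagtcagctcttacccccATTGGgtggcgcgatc
H2-Q7: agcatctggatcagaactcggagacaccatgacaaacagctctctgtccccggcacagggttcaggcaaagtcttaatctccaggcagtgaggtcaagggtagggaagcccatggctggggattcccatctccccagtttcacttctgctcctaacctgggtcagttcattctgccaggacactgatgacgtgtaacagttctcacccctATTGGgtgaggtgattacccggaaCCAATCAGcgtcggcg

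Of 18 listed genes of class I presentation and the immunoproteasome, 4 were called higher (7 without NS replicate 1), 0 lower, and 2 held. Over all genes tested, 0.596% were called higher and 0.36% held in either direction. All 18 log2 fold changes were above 0 with all libraries and also without NS replicate 1, among them values as small as that of Tapbp, the peptide loading factor tapasin (0.02, SE 0.19). In 11 of the 18 the DOX libraries all lay above the NS libraries, as they did in 7.15% of all genes tested. The median log2 fold change of the list was 0.72, and 0.50 to 0.97 over the refits. Members that were not called included B2m, the light chain of class I (0.65, SE 0.28), Tap2, a subunit of the peptide transporter (0.49, SE 0.19), and Nlrc5, the activator of class I transcription (0.98, SE 0.39). Psme1, a proteasome activator subunit, was at 50.4, 54.2 and 53.1 CPM after NS and at 82.1, 99.1 and 80.7 CPM after DOX. Its groups were well apart at a log2 fold change of 0.73 (SE 0.12), below the limit for a call. Tap1, the other transporter subunit, was called (1.21) but met the limits in only 2 of the 6 refits.

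Of the MHC class II genes, which professional antigen-presenting cells use, 5 of 9 tested were called higher (2 without NS replicate 1) and 2 held. The shares over all genes tested were 0.596% called higher and 0.36% held in either direction. Ciita, the transactivator of all class II genes, was at 1.04, 1.85 and 4.07 CPM after NS and at 9.93, 8.99 and 7.21 CPM after DOX, a log2 fold change of 1.91 (SE 0.61, 1.55 to 2.59 over the refits). H2-Ab1, a class II beta chain, was at 31.3, 91.8 and 66.8 CPM after NS and at 169, 161 and 172 CPM after DOX (log2 fold change 1.40, SE 0.44). Both genes held and neither overlapped between groups, although NS replicate 1 gave the lowest value for each. H2-Aa, H2-Eb1 and the invariant chain Cd74 were called higher with all libraries (1.3, 1.45 and 1.14) but missed the limits without NS replicate 1, where they had 0.87, 0.97 and 0.77. All 9 had a log2 fold change above 0, and their median was 1.14 (0.87 to 1.68 over the refits). In 7 of the 9 the groups were apart with DOX higher (7.15% of all genes tested). NS replicate 1 was the lowest of the 6 libraries in 7 of the 9.

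Of 52 interferon-stimulated genes tested, 5 were called higher (0.596% of all genes tested) and 1, Ifi204, lower (2.22%), and 0 held. Without NS replicate 1, 10 were called higher and 0 lower. In 36 the log2 fold change was above 0, against 7158 of all 16101 genes tested. The median log2 fold change was 0.42, or 0.61 without NS replicate 1, where 46 of 52 values were above 0. Gbp4, an interferon-induced guanylate-binding protein, was called (log2 fold change 1.35) and met the limits in 4 refits.

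Markers of T and NK cells were low in every library, and 3 of 13 tested were called higher after DOX (0.596% of all genes tested). All 13 log2 fold changes were above 0 (12 without NS replicate 1), with a median of 1.01 (0.79 to 1.76 over the refits). Gzma, a protease of cytotoxic granules (chr13:113093825-113100981, minus strand), had 0, 2 and 3 reads in the NS libraries and 22, 32 and 37 reads in the DOX libraries. Its groups were apart and its fitted log2 fold change of 4.13 (SE 0.64, adjusted p = 0.222, edgeR quasi-likelihood) held, at 3.55 to 4.83 over the refits. The 14 listed T and NK markers summed to 6.12, 7.78 and 10.5 CPM after NS and to 23.6, 21.9 and 14.3 CPM after DOX. The sums did not overlap, but they include Gzma and the other called markers, so they are not separate from those genes. Nkg7 and Ccl5, also of cytotoxic cells, were called (2.12 and 1.51) without holding, and Cd3d, part of the T cell receptor complex, had a log2 fold change of 0.00. Cx3cr1, the fractalkine receptor of monocytes, macrophages and NK cells, held at 1.73 (SE 0.37), with 2.77, 1.97 and 3.38 CPM after NS and 6.60, 11.2 and 9.26 CPM after DOX. Its gene model overlaps 9 others, 5 of them protein-coding, Xirp1 and Csrnp1 included, whose reads it may share. The macrophage list as a whole did not follow Cx3cr1: 3 of its 15 members had a log2 fold change above 0 with all libraries and 10 of 15 without NS replicate 1.

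Other higher genes that hold are known from heart muscle, nerve or other tissues. Kcne1, the accessory subunit of the slow delayed rectifier potassium channel, was at 0.75, 4.91 and 0.689 CPM after NS and at 7.73, 10.2 and 9.88 CPM after DOX, a log2 fold change of 2.13 (SE 0.67). Ddc, the decarboxylase that makes dopamine and serotonin, was at 0.462, 4.61 and 0.439 CPM after NS and at 7.11, 10.1 and 8.70 CPM after DOX (2.23, SE 0.67). In both, the groups were apart and NS replicate 2 was by far the highest NS library, without which the log2 fold changes were 3.67 and 4.24. The same library was the highest NS library in 13 of the 27 higher genes, among them Fgf16, Sv2a, Tnnt1 and Pirt. No share over all genes tested was computed to set beside this count. The sum of 10 atrial markers was 1090, 7880 and 431 CPM after NS and 5100, 2680 and 1920 CPM after DOX, so it too was low in NS replicates 1 and 3, and its part in these results was not tested.

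Fgf16, a growth factor made by cardiomyocytes, was at 4.16, 10.1 and 5.01 CPM after NS and at 16.1, 18.2 and 15.9 CPM after DOX. The groups did not overlap, and the log2 fold change of 1.38 (SE 0.28) was 1.14 to 1.87 over the refits. The synaptic genes Lrrc4b (2.17, or 1.41 without DOX replicate 1) and Sv2a (1.39), the slow skeletal troponin Tnnt1 (1.26), the ion channel regulator Pirt (1.26), the acetylcholinesterase anchor Colq (1.23), the kelch protein Klhdc8a (1.35) and the endothelial protocadherin Pcdh12 (1.37) held as well. Rragd, a GTPase that brings mTORC1 to the lysosome, was at 46.6, 38.5 and 23.1 CPM after NS and at 89.7, 89.2 and 96.1 CPM after DOX (1.35, SE 0.31). Spsb4, a substrate receptor of a ubiquitin ligase, was at 7.27, 6.40 and 4.70 CPM after NS and at 13.5, 17.2 and 15.7 CPM after DOX (1.33, SE 0.22, adjusted p = 0.222 in edgeR's quasi-likelihood test). In these 2 genes NS replicates 1 and 2 were both above replicate 3, and the DOX libraries varied little. Cideb, a protein of lipid droplets (1.5, SE 0.32), and Dcun1d2, which helps attach NEDD8 to cullins (1.38, SE 0.36), also held. Exosc6, a subunit of the RNA exosome, met the limits in every refit (4.89, SE 1.40) with 93 and 86 reads in DOX replicates 1 and 2 but 3 reads in DOX replicate 3 and 1, 4 and 1 after NS, so its groups overlapped and 2 libraries carry the difference. Exosc6 also overlaps Aars, whose reads it may share.

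Several lower genes that hold were far above the other libraries in NS replicate 1. Serpina3n, an acute-phase protease inhibitor, was at 1110, 26.6 and 148 CPM after NS and at 47.9, 30.6 and 27.2 CPM after DOX. Its groups overlapped, and its log2 fold change went from -3.61 to -1.32 without NS replicate 1. Hmox1, the heme oxygenase that NRF2 induces, was at 370, 20.4 and 70.2 CPM after NS and at 20.5, 14.2 and 12.2 CPM after DOX, with overlap by NS replicate 2 and a log2 fold change of -3.30 (-1.54 without NS replicate 1).

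Mt2, a metallothionein that binds zinc and copper, was at 462, 43.3 and 51.5 CPM after NS and at 20.4, 19.4 and 18.3 CPM after DOX. The groups were apart, and its log2 fold change was -3.26 (SE 0.87), or -1.29 without NS replicate 1. Mt1, its neighbor, was called (-1.56) and met the limits in 5 of 6 refits. Gm45774, an antisense model that overlaps Mt2 on the other strand, held too (-2.85), and whether the counting used strand is not stated, so reads of the 2 cannot be told apart. Gsta1 and Gsta2, near-identical glutathione transferases whose reads may be shared, held at -2.05 (SE 0.60) and -2.13 (SE 0.58), the latter at -1.37 without NS replicate 3. Gsta1 was at 4.5, 1.38 and 7.83 CPM after NS and at 1.38, 0.8 and 1.12 CPM after DOX, with NS replicate 2 level with DOX replicate 1, and its log2 fold change was -2.06 without NS replicate 1. Of 49 antioxidant genes tested, 8 were called lower (5 without NS replicate 1) and 0 higher, and 3 held (Hmox1, Mt2 and Gsta1). Among all genes tested, 2.22% were called lower and 0.36% held in either direction. The list's median was -0.44, or -0.15 without NS replicate 1.

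The inducible 70-kDa heat shock proteins were called lower after DOX, also without NS replicate 1. Hspa1b was at 17.4, 36.4 and 18.9 CPM after NS and at 8.30, 5.66 and 9.57 CPM after DOX, a log2 fold change of -1.63 (SE 0.31) that was -1.82 without that library. Hspa1a was at 7.21, 19.7 and 15.9 CPM after NS and at 4.59, 4.31 and 6.96 CPM after DOX (-1.43, SE 0.35). Every NS value lay above every DOX value in both, with NS replicate 2 highest. Their windows before the RefSeq start (chr17:34972157-34972406 for Hspa1a and chr17:34959239-34959488 for Hspa1b, both minus strand, GRCm38.p6) have 247 of 250 bases in common, and the genes are so alike that their reads may be shared. Capitals mark the heat shock element core GAANNTTC (N, any base, both strands searched), found in 6.69% of all windows, and the Y box letters CTGATTGG.
Hspa1a: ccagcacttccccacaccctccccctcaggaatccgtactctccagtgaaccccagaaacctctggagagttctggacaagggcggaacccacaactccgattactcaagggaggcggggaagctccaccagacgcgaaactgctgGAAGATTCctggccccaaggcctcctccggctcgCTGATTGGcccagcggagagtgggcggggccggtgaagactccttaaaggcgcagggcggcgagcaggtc
Hspa1b: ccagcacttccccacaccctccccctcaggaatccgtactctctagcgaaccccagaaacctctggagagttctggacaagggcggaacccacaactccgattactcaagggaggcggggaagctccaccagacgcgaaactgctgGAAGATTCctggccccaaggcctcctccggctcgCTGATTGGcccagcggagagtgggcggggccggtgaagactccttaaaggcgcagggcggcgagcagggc
The window of Mt2 (chr8:94172368-94172617, plus strand) holds none of these. Its capitals mark the TGCGCNC form of the metal response core (12.5% of windows) and the antioxidant response core TGACNNNGC (10.2% of windows), each once. Other forms of the metal response core were not searched.
Mt2: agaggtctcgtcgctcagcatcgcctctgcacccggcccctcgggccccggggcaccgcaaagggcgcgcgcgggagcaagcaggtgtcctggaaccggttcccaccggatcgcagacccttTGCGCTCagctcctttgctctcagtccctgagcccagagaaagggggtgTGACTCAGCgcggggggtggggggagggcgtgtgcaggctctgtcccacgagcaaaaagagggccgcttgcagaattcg
Of 39 heat shock and unfolded protein response genes tested, 8 had a log2 fold change above 0 and 2 were called, Hspa1a and Hspa1b (3 without NS replicate 1). The 2 calls were 5.13% of the list, against 2.82% of all genes tested. Dnajb1 and Dnaja1, cochaperones of HSP70, had values of -0.66 and -0.50 with the groups apart.

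C7, a component of the membrane attack complex of complement (chr15:4988762-5063740, minus strand), had a smaller unadjusted p than any other gene that holds. It was at 33.6, 26.4 and 41.4 CPM after NS and at 10.2, 5.6 and 8.95 CPM after DOX, and the groups were far apart. The log2 fold change was -2.03 (SE 0.28, adjusted p = 0.222, edgeR quasi-likelihood), stayed between -2.21 and -1.81 over the refits, and DESeq2 gave an adjusted p of 9.28e-08. Of the 22 complement genes tested, C4b, Cfb and Cfp were also called lower, each in only 2 or 3 of 6 refits, and 1 was called without NS replicate 1. With all libraries, 18.2% of the list was called, against 2.82% of all genes tested.

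Cebpb, a transcription factor of acute-phase and stress genes, was at 427, 189 and 132 CPM after NS and at 74.8, 59.8 and 59.9 CPM after DOX. The groups were apart, and the log2 fold change of -1.94 (SE 0.37) was -1.31 without NS replicate 1. It belongs, with Mt2, to a list of 25 genes known to respond to glucocorticoids. Of that list, 24 had a log2 fold change below 0 with all libraries and 23 without NS replicate 1. Values below 0 were the more common sign in general, with 7158 of all 16101 genes tested above 0. The median of that list was -0.78 and moved only between -0.85 and -0.64 over the refits. Its lower calls numbered 8 (4 without NS replicate 1), against 2.22% of all genes tested. In 9 members all DOX values lay below all NS values (6.11% of all genes tested). Fkbp5, a chaperone of the glucocorticoid receptor, was at 165, 138 and 107 CPM after NS and at 63.1, 52.9 and 80.8 CPM after DOX (log2 fold change -1.06). It met the limits in 3 of 6 refits. Errfi1, an inhibitor of the EGF receptor (-1.29), and Angptl4, an inhibitor of lipoprotein lipase (-2.43), met them in 5. Pdk4, which blocks pyruvate use, was at 144, 712 and 2260 CPM after NS and at 215, 126 and 184 CPM after DOX, and its log2 fold change of -2.57 met the limits in 4 refits. Its groups overlapped, and the NS libraries were far apart from each other. The receptor itself, Nr3c1, had a log2 fold change of 0.47.

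Other lower genes that hold came from several pathways. Scn4b, the beta 4 subunit of the sodium channel, was at 14.4, 36.3 and 127 CPM after NS and at 12.7, 8.37 and 9.57 CPM after DOX (-2.53, SE 0.63). NS replicate 1 was the NS library closest to the DOX libraries here, and the log2 fold change was -3.00 without it, but -1.31 without NS replicate 3, the highest library. Has1, a hyaluronan synthase, was at 4.79, 3.17 and 1.38 CPM after NS and at 0.566, 0.554 and 0.249 CPM after DOX (-2.75, SE 0.59). Chac1, an enzyme of the integrated stress response that degrades glutathione, held at -1.52 (SE 0.38), with -1.74 without NS replicate 1. The Golgi GTPase Rab6b (-3.54), the tyrosine catabolic enzyme Fah (-2.59) and the carrier membrane protein Scamp4 (-2.12) held too. So did the adenosine receptor Adora2b (-2.25), the steroid sulfate transporter Slc10a6 (-2.08) and fetuin B (Fetub, -2.16), whose log2 fold changes were -1.01, -1.38 and -1.39 without NS replicate 1. Scgb3a1, a secretoglobin, met the limits throughout (-4.87, SE 1.26) but was at 22.7 CPM in NS replicate 2 and at 0.577 and 1.0 CPM in the other NS libraries, with a log2 fold change of -1.52 without that library. The cholesterol exporter Abca1 held at -1.31, but its groups overlapped, with 39.2 CPM in NS replicate 2 and 41.6 CPM in DOX replicate 3. The groups of Fah overlapped too, with 10.1 CPM in NS replicate 2 and 10.9 CPM in DOX replicate 1.

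The 4 lower calls of largest fold change with a mean CPM over 1 did not hold. Saa3, an acute-phase apolipoprotein, was at 917 CPM in NS replicate 1 and between 0.435 and 1.63 CPM in every other A17fl/fl library, for a log2 fold change of -8.63 that became -0.79 without that library. Il1b (-7.08), Retnlg (-6.80) and Mmp8 (-6.64), genes of neutrophils and other inflammatory myeloid cells, were -0.36, -0.25 and 0.19 without it. Of the 12 neutrophil markers tested, 10 were called lower (1 without NS replicate 1) and 0 held, and their median went from -4.39 to -0.04. Of 33 cytokines and chemokines tested, 17 were called lower (0 without NS replicate 1) and none of these held, and the median went from -1.54 to 0.22. With all libraries, 2.22% of all genes tested were called lower.

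Among matrix genes, Col3a1, a fibrillar collagen, was at 3800, 438 and 110 CPM after NS and at 364, 401 and 289 CPM after DOX. The DOX values lay inside the NS range, and the log2 fold change of -2.04 became 0.36 without NS replicate 1. Lox (-4.01 and 0.07), which crosslinks collagen, Timp1 (-4.94 and 0.73), an inhibitor of metalloproteinases, and Spp1, osteopontin (-6.12 and 0.48), also changed sign. The median of 25 collagen chains went from -0.12 to 0.42 and that of 49 cell cycle genes from -0.64 to 0.23. Among the 62 TNF and NF-kB genes tested, 19 were called lower and 2 higher, against 2.22% and 0.596% of all genes tested. Without NS replicate 1 the calls were 1 and 1, and Cebpb was the only listed gene to hold.

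**Figure D3:**
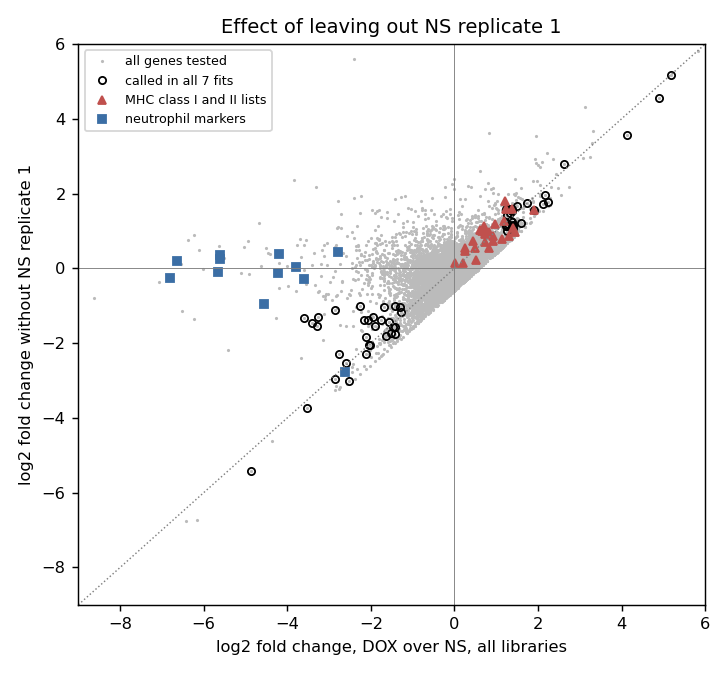
Log2 fold change (DOX over NS) of each gene with all libraries (horizontal) and without NS replicate 1 (vertical) in A17fl/fl hearts; the dotted line marks equal values. Most neutrophil markers (blue squares) lie far left of it and near 0 on the vertical axis, with medians of -4.39 and -0.04, while the MHC genes (red triangles) are above 0 on both axes. The 58 genes called in all 7 fits (open circles) keep their side of 0 by the rule that chose them.

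In some lists many genes had small differences in one direction. Of 52 nuclear-encoded subunits of the respiratory chain, 51 had a log2 fold change above 0, none was called, and in 30 the DOX libraries were all above the NS libraries (7.15% of all genes tested). Their median was 0.26, and 0.18 without NS replicate 1, where 47 of 52 stayed above 0. Cyc1, cytochrome c1, was at 561, 706 and 653 CPM after NS and at 829, 881 and 879 CPM after DOX (0.43). The 15 mitochondrially encoded genes had a median of -0.16 and no member with separate groups. Sarcomere genes had a median of 0.34 and 1 call, Actc1, cardiac alpha-actin (1.02, called in 3 of 6 refits). The cardiomyocyte marker sum was lowest in NS replicate 1, and NS replicate 1 was the lowest of the 6 libraries for 41 of the 52 respiratory chain and 26 of the 39 sarcomere genes. Topoisomerases and genes of anthracycline handling had a median of -0.08 and no calls among 21 tested.

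**Figure D4:**
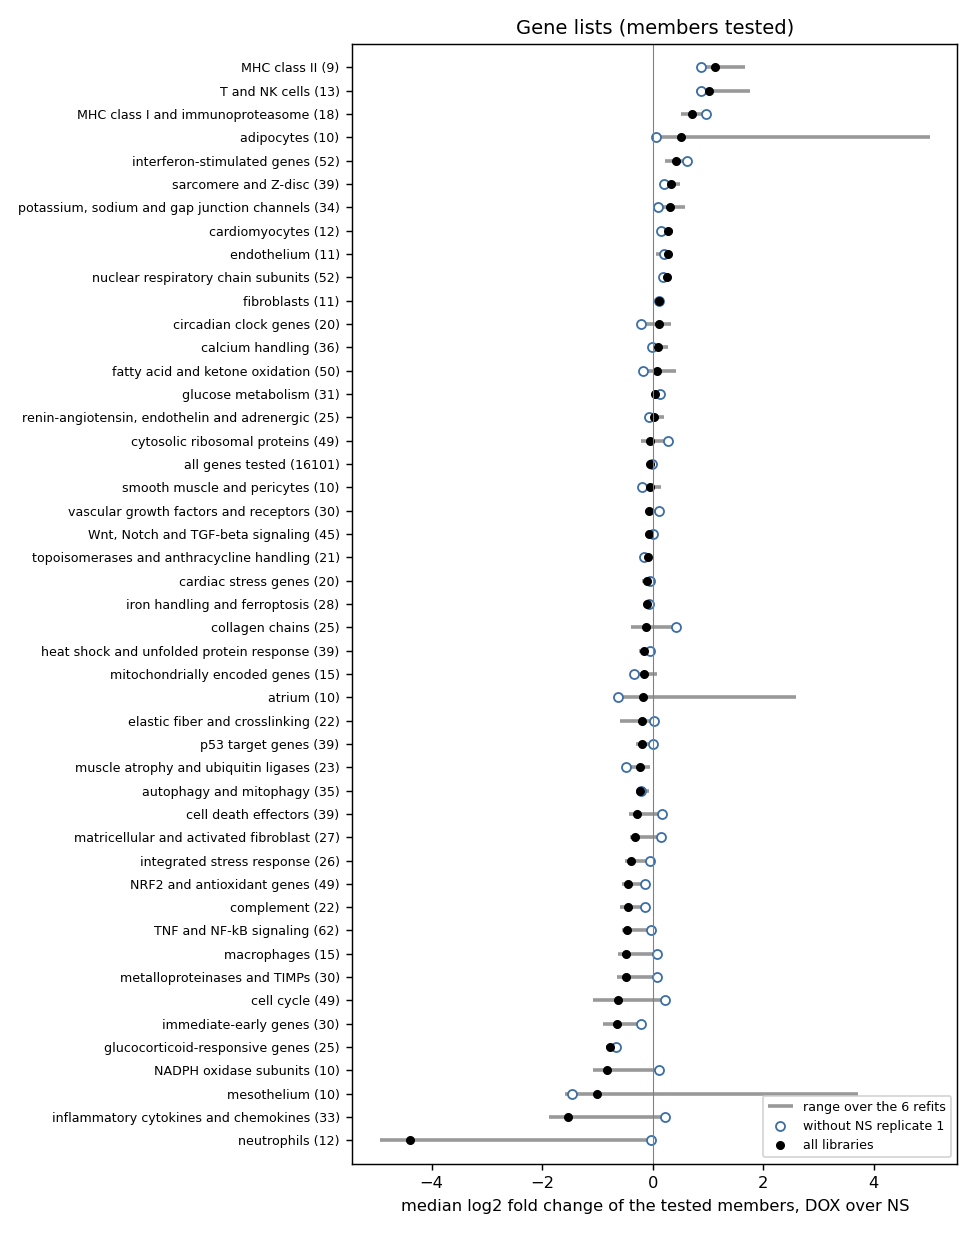
Median log2 fold change (DOX over NS, A17fl/fl) of the tested members of each list with at least 9 of them and of all genes tested, with all libraries (black), without NS replicate 1 (open) and as the range over the 6 refits (grey line). The MHC class I, MHC class II, T and NK cell and glucocorticoid-responsive lists keep their sign in every refit. Other lists do so too, among them the neutrophil list, whose median ranges from -4.94 to -0.04. The cytokine, collagen, cell cycle and cell death lists cross 0.

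Adam17 itself, floxed but not excised in these mice, was at 70.9, 48.7 and 43.6 CPM after NS and at 48.1, 53.2 and 48.4 CPM after DOX. The groups overlapped (log2 fold change -0.12, exact two-sided permutation p = 0.8, where 0.1 is the smallest that 3 against 3 allow), and the value was 0.11 without NS replicate 1. In the A17α-MHCKO libraries it averaged 34.8 ± 0.58 CPM after NS and 32.3 ± 4.45 CPM after DOX (SD, n = 3), below each A17fl/fl library. Traf3, an adaptor of TNF-family receptors, was at 12.1, 10.6 and 9.65 CPM after NS and at 25.1, 20.7 and 22.3 CPM after DOX (log2 fold change 1.07, SE 0.29, exact permutation p = 0.1). Its groups did not overlap, and it met the limits in 5 of 6 refits but fell just short of a log2 fold change of 1 without DOX replicate 1.

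The same treatment in A17α-MHCKO mice shares no library with these groups. There, 640 genes had an unadjusted p under 0.05 with a higher level after DOX (3.97% of those tested) and 393 with a lower one (2.44%), and 0 genes reached an adjusted p under 0.05 in edgeR's quasi-likelihood test (smallest 0.205). Of the 27 genes called higher in every A17fl/fl fit, 16 had the same sign in A17α-MHCKO mice and 7 an unadjusted p under 0.05 in that direction, and of the 31 lower genes 17 and 3. Of all genes tested, 50.5% were higher and 49.5% lower after DOX there, so the counts of same sign are near the background. The higher ones with a symbol were Fgf16 (log2 fold change 1.19 in A17α-MHCKO mice), Rragd (0.97), Cideb (0.95), Dcun1d2 (0.93) and Spsb4 (0.58). The lower ones included C7 (-0.70) and Igsf23 (-1.33), an immunoglobulin superfamily gene. Pcdh12 (-0.61) and Cpxm2, a carboxypeptidase-like gene (1.08), went the other way at an unadjusted p under 0.05. H2-K1 (-0.07), H2-Ab1 (-0.17), Gzma (-0.14), Mt2 (0.23) and Hspa1b (-0.13) had an unadjusted p above 0.05 there. In this order, their A17α-MHCKO + NS means were 514, 173, 1.47, 33.0 and 9.29 CPM. Means were 275, 63.3, 0.103, 185 and 24.2 CPM in A17fl/fl + NS and 648, 168, 1.88, 19.4 and 7.84 CPM in A17fl/fl + DOX. By these means saline knockout hearts were nearer A17fl/fl + DOX, in genes taken from the 58 that the A17fl/fl difference itself chose. The SDs of the A17α-MHCKO + NS values were 115, 90.3, 0.275, 20.6 and 2.65 CPM in the same order. The A17fl/fl + NS mean of Mt2 rests on NS replicate 1, at 462 CPM against 43.3 and 51.5 CPM in replicates 2 and 3. For Fgf16 (8.74 CPM, against 6.43 and 16.7 CPM) saline knockout hearts were nearer A17fl/fl + NS, and why was not tested. None of the 58 differed between genotypes at an adjusted p under 0.05 for the interaction in edgeR's quasi-likelihood test (smallest over all genes 0.524), although 44 had an unadjusted p under 0.05, in a test that uses the libraries that chose them.

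**Figure D5:**
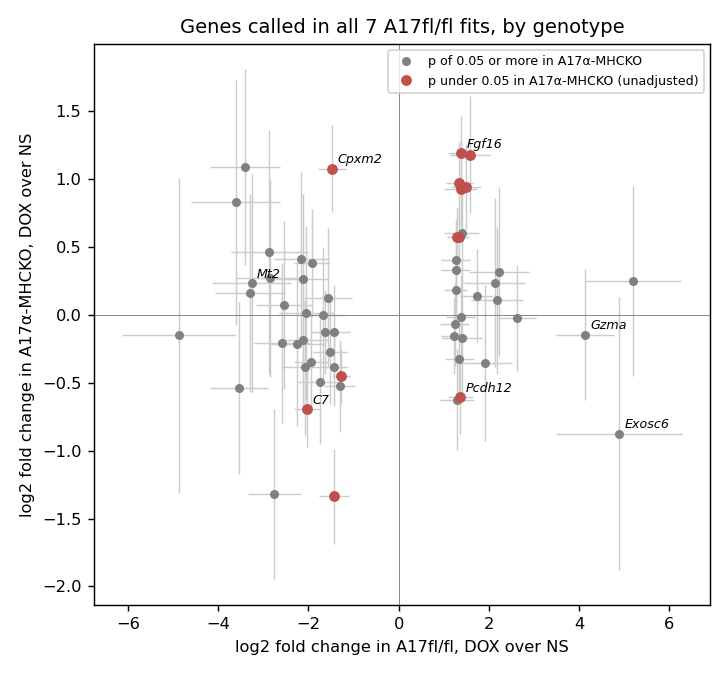
Log2 fold change (DOX over NS, bars ± SE) of the 58 genes called in all 7 A17fl/fl fits, in A17fl/fl hearts (horizontal) and A17α-MHCKO hearts (vertical), with red points for an unadjusted p under 0.05 in A17α-MHCKO mice. Fgf16 (1.38 and 1.19) and C7 (-2.03 and -0.70) lie on the same side of 0 in both genotypes, and most other genes spread around 0 on the vertical axis.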

How the data were processed

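RNA of 12 mouse heart samples was sequenced as stranded paired-end libraries. The authors aligned reads with HISAT2 (build GRCm39, CASAVA 1.8 and SAMtools 1.3.1 per the labels), counted fragments with StringTie and deposited raw counts and FPKM per gene. Both units were used as deposited: the counts for tests and the FPKM only for the limit of 1. The 6 A17fl/fl libraries and their groups were taken from the sample titles. A quasi-likelihood test (edgeR 4.0.16, R 4.3.3) with filterByExpr, TMM and 4 group means was fitted on all 12 libraries and refitted without each A17fl/fl library. Alternatives were DESeq2 1.42.0, limma 3.58.1 (voom), a likelihood ratio test, other normalizations and filters, 2 groups alone and a replicate block. Total counts limit precision for genes with few reads.

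Coordinates are those of GENCODE M21 (GRCm38), matched by gene ID (53274 of 53465 IDs), not of the build the authors used. Promoter windows came from RefSeq (GRCm38.p6).

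The comparison and the 54 gene lists were chosen with earlier results of these data known. The text names the 15 genes of largest fold change in each direction among those that hold, up to 4 per direction among all called with a mean CPM over 1, up to 3 called genes per list with the smallest p, and Adam17 and Traf3, leaving out predicted models and a few genes that are not reported here. Other genes named with values (such as H2-Q5, Tnnt1, Pirt, Colq, Rragd, Spsb4, Abca1, Igsf23, Cpxm2, Gm45774 and further list members) were chosen after their values were seen. Each library is 1 sample; the sources used here do not say how the 3 of a group were drawn from its mice, so p measures the spread between these samples.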

Additional observations from a re-analysis of the deposited data

How the results depend on the processing

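The count of called genes (454) was 184 with voom weights, 235 with the A17fl/fl groups alone, 281 with a replicate block and 204 to 987 over the fits that leave out 1 library, and stayed within 1.5 times with the other alternatives. The count at an adjusted p under 0.05 (0) was 151 with DESeq2, 128 with the likelihood ratio test, and 0 to 391 with a library left out. The 58 genes that hold became 92 with a CPM limit in place of the FPKM limit, 30 with voom and 45 with the A17fl/fl groups alone. They became 46 with at least 10 counts in every library and 61 with the replicate block. No clear pairing by replicate number was seen, though 3 libraries a group cannot exclude it. Same-number correlations of deviations were 0.08, -0.07 and 0.25, and 1 of 3 NS libraries correlated best with the DOX library of its number. Of the 58, 43 were called under every alternative with all libraries present.

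Of 1495 recomputed log2 fold changes of 101 named genes, 1225 kept direction and side of the limits, 251 no longer met the limits and 19 changed sign; the cause was not tested. The sign changed without NS replicate 1, which gave the upper end of the range over the left-out libraries, for Mmp8 (-7.32 to 0.19), Ncf4 (-2.41 to 0.55), Col3a1 (-2.59 to 0.36), Lox (-4.57 to 0.0712), Loxl3 (-1.76 to 0.13), Spp1 (-6.70 to 0.48), Timp1 (-5.51 to 0.73), Uck2 (-1.52 to 0.01), Rrm2 (-1.93 to 0.0593), Nlrp3 (-4.25 to 0.79), Inhba (-2.91 to 0.0935), Angpt2 (-1.75 to 0.0096) and Adam17 (-0.26 to 0.11). With voom weights it changed for Ncf4 (0.20), Col3a1 (0.43), Timp1 (0.12), Nlrp3 (0.14), Inhba (0.16) and Adam17 (0.0683). Of 545 values for the 37 named genes that hold, 540 kept direction and limits and 0 changed sign, which for the values that leave out a library was fixed by the rule that chose these genes. With 3 libraries a group, an exact permutation p cannot go below 0.1. Pairs of NS libraries differed by 57.0 to 186 in chi-square per degree of freedom, and pairs of DOX libraries by 12.01 to 15.9.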
